A study of Mus musculus with 20 samples.

Results

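The 10 genes described here are imprinted genes with roles in growth, namely Meg3, Rian, Mirg, Dlk1, H19, Igf2, Peg3, Plagl1, Cdkn1c and Grb10. They were taken by name from a table of 54532 genes. The names were chosen by measured values, the genotype differences in liver and kidney of these same libraries, so those differences are given as a description and without p values. The table holds kidney and liver of male C57BL/6 mice in 4 groups of 5 libraries: kidney and liver of mice labelled Lxrα-/-, called labelled knockout below, and kidney and liver of wild-type mice. Nr1h3 is the gene of Lxrα, an oxysterol-sensing nuclear receptor. The deleted part of the gene, the age, the diet and the breeding of the mice are not given in the labels, and a kidney and a liver that share genotype and title number are treated as coming from 1 mouse. Nothing in the labels says more of how the replicates were raised, so the spread between libraries may be partly technical.

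Imprinted genes are read mainly from the copy inherited from a single parent, a choice that is set by DNA methylation at control regions. Igf2, Dlk1, Peg3 and Plagl1 are usually read from the father's copy, and H19, Meg3, Rian, Mirg, Cdkn1c and, outside the brain, Grb10 from the mother's copy. Many of them are strongly expressed in fetal tissue and decline after birth in liver and kidney. Counts per gene do not show which parental copy was read.

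The members fall into few genomic groups. Dlk1, Meg3, Rian and Mirg lie in a row on the plus strand of mouse chromosome 12 (mm10), at positions 109452823 to 109463336, 109541001 to 109571726, 109603940 to 109661716 and 109729764 to 109749460. H19 (142575529 to 142578143), Igf2 (142650766 to 142666816) and Cdkn1c (143458339 to 143461050) lie on the minus strand of distal chromosome 7, with 72.6 kb between H19 and Igf2. Peg3 is on the minus strand of chromosome 7 at 6703892 to 6730431, Plagl1 on the plus strand of chromosome 10 at 13060504 to 13131694, and Grb10 on the minus strand of chromosome 11 at 11930508 to 12038683. Positions and strands of 10 of 10 members were the same in GENCODE M21, which annotates up to 10 exons per transcript for Meg3, 11 for Rian and 17 for Mirg. Meg3, Rian, Mirg and H19 make long RNAs without a known protein, and the other 6 encode proteins.

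The long RNAs of chromosome 12 carry small RNAs in their introns and exons, and RefSeq (GRCm38.p6) places 26 mature miRNA arms of 14 miRNA genes within Mirg, 6 arms of 3 genes within Rian and 3 arms of 2 genes within Meg3. H19 holds both arms of Mir675 and Igf2 both arms of Mir483. A selection is shown from Meg3, Rian, Mirg and H19, the members with the largest differences in liver below, with the seed, bases 2 to 8, in capitals.
mmu-miR-770-5p (Meg3): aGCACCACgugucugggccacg
mmu-miR-370-3p (Rian): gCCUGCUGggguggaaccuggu
mmu-miR-453 (Mirg): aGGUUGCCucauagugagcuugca
mmu-miR-496a-5p (Mirg): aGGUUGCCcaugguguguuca
mmu-miR-154-3p (Mirg): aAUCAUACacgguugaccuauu
mmu-miR-369-3p (Mirg): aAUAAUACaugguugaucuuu
mmu-miR-410-3p (Mirg): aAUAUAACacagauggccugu
mmu-miR-675-5p (H19): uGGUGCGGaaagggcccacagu
mmu-miR-675-3p (H19): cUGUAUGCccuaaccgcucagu
Among the arms within members, miR-453 and miR-496a-5p shared a seed, so the 26 arms of Mirg hold 25 seeds. The libraries were made from long RNA, and mature miRNAs were not measured. The rows of the table for miRNA genes within Rian held 12 counts summed over the 20 libraries, and those on the strand of Mirg held 10. All of these counts were in labelled knockout livers.

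RefSeq windows of 250 bases before to 50 bases after the listed start were found for 8 of 10 members, as 13 windows. Of 2 Meg3 windows 1 is printed, with the window of Rian, because these RNAs moved together in liver. Capitals mark the cAMP response element TGACGTCA and, on either strand, TATAAA. The TATAAA matches of both strands overlap each other and not TGACGTCA.
Meg3, chr12:109540746-109541045, plus strand: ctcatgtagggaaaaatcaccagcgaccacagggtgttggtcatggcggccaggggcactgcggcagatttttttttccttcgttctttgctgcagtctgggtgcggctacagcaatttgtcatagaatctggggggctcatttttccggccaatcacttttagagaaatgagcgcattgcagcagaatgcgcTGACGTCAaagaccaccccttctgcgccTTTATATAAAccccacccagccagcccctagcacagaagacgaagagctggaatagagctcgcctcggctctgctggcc
Rian, chr12:109603695-109603994, plus strand: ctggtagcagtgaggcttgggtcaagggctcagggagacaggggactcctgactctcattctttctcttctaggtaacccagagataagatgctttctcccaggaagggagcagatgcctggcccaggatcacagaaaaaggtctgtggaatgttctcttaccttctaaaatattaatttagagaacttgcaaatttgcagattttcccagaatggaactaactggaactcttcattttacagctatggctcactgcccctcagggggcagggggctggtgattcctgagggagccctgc
The printed Meg3 window held TGACGTCA, which 1.79% of 32851 mouse windows of this length hold, and TATAAA on both strands, which 13.6% hold. The Rian window and the other Meg3 window, chr12:109545148-109545447, held neither. Meg3 had 13 CpG in the printed window and 1 in the other, Rian had 0 and Mirg 10, against a median of 7 (quartiles 3 and 20) over all windows. The Mirg window, chr12:109734731-109735030, lies within the gene span given above and not at its start. The DR4 element, the direct repeat bound by LXR with RXR, was searched on both strands as well, and none of the 13 windows of the members held its consensus (0.0152% of all windows do). The window of Peg3 held TGACGTCA and GGGGCCCC, the consensus of the zinc finger protein encoded by Plagl1 (1.08% of all windows). A match of letters is a description of the sequence only.

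Total counts ran from 23421561 to 35376342 per library, and mean correlations of log2 CPM with the other libraries of a group were between 0.921 and 0.989. Levels are CPM, counts scaled by library size and by TMM factors within a tissue, and group values are mean ± SD with n = 5. Wild-type kidney 3 had 50.8% mitochondrial counts and wild-type kidney 1 had 7.21%, against 12.6% to 21.1% in the other 8 kidneys. Kidney genotype differences of members that change without these 2 are therefore also given without them. Nr1h3 itself was higher in the labelled knockout libraries, at 126 ± 21.7 against 52.1 ± 2.27 CPM in kidney and 167 ± 18.0 against 98.2 ± 13.6 in liver. Counts per gene do not check the deletion, so genotypes are given as labelled. The hepatocyte marker Alb stood at 28671 CPM or more in every liver and at 7.47 or less in every kidney, and the proximal tubule marker Slc34a1 at 1790 or more in every kidney and at 0.124 or less in every liver.

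In liver, Meg3, Rian and Mirg were far higher in the labelled knockout, at 39.6, 37.6 and 33.2 times the wild-type level, and H19 was lower, at 22.9 times less. Plagl1 was lower by 2.08 times. Peg3, Cdkn1c and Grb10 were not called. Calls were made in edgeR's quasi-likelihood test, with a limit of 0.05 on the p adjusted over the 14822 genes tested in liver. Of 8 members that passed the filter on low counts, 3 were called higher and 2 lower, where 1.94% and 4.08% of all genes tested were called in these directions. Mirg and H19 passed that filter through the group in which they are high, and the members were picked with this contrast known, so nothing is read from the counts. Dlk1 and Igf2 did not pass the filter.

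Meg3, a long RNA with reported growth-restraining activity, had 26, 28, 30, 35 and 63 counts in the livers of wild-type mice 1, 3, 4, 5 and 6. It had 2828, 442, 1100, 435 and 1565 counts in the livers of labelled knockout mice 1 to 5. The lowest labelled knockout liver, at 12.6 CPM, was 6.95 times above the highest wild-type liver, at 1.81 CPM. The group levels were 48.6 ± 37.5 against 1.21 ± 0.340 CPM, a log2 fold change of 5.31 with a standard error (SE) of 0.56. Labelled knockout livers thus differed among themselves by 8.42 times, with mouse 1 highest and mouse 4 lowest, and wild-type livers by 1.79 times.

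Rian, which hosts C/D box small nucleolar RNAs, had 15, 15, 17, 28 and 46 counts in the wild-type livers and 1897, 289, 792, 216 and 800 in those of the labelled knockout. Its levels were 30.6 ± 25.4 against 0.792 ± 0.330 CPM, a log2 fold change of 5.23 (SE 0.62). The lowest labelled knockout liver was 4.73 times above the highest wild-type liver. Mirg, the host of the miRNA cluster shown above, had 1, 6, 0, 0 and 6 counts in the wild-type livers and 157, 14, 64, 24 and 143 in the others. Its log2 fold change was 5.05 (SE 0.87), with 4.69 without labelled knockout liver 1 and 5.65 without wild-type liver 3. This fold rests on few wild-type counts. The groups of Meg3, Rian and Mirg did not overlap, as for 2.42% of all genes tested in this direction.

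Rian kept a similar proportion to Meg3 within liver libraries, and Mirg varied more. Per kb of gene length, Rian stood at 0.606 ± 0.0996 (n = 5) of the Meg3 level in labelled knockout liver and at 0.637 ± 0.115 (n = 5) in wild-type liver. Mirg stood at 0.145 ± 0.0529 (n = 5) of Meg3 in labelled knockout liver, from 0.0786 to 0.227. Its ratio to Rian there ran from 0.121 to 0.447. In wild-type liver the ratio of Mirg to Meg3 ran from 0 to 0.532, on at most 6 counts of Mirg. Mice 1, 5 and 3 had the highest levels of Meg3 and mice 2 and 4 the lowest, and the same mice were high and low for Rian and Mirg.

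**Figure D1:**
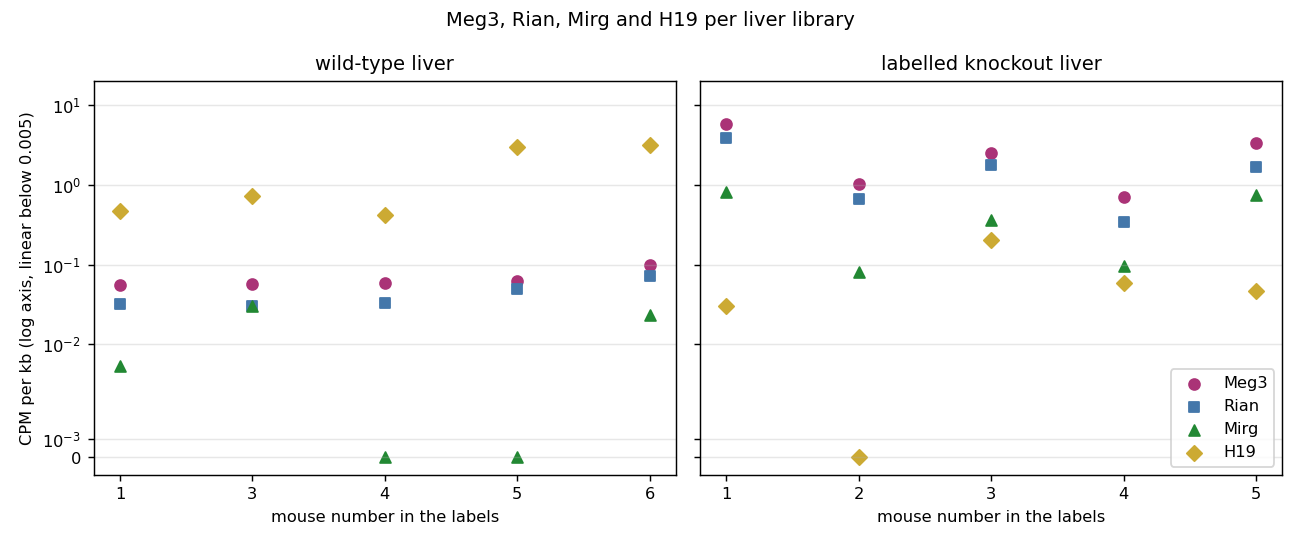
CPM per kb of gene length (vertical, log axis that is linear below 0.005) of Meg3, Rian, Mirg and H19 in each liver, by mouse number, wild type left and labelled knockout right; each symbol is 1 library. In wild-type livers H19 lies above Meg3, and in labelled knockout livers Meg3 and Rian lie above H19, with mouse 1 highest and mouse 4 lowest for Meg3.

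Other genes of the same imprinted domain stayed at low counts in liver. Dlk1, a membrane protein that restrains Notch signalling and adipocyte differentiation, had between 0 and 2 counts in wild-type livers and between 0 and 4 in labelled knockout livers. At this depth 3 counts correspond to 0.0861 to 0.126 CPM in liver, so a difference of Dlk1 was not detectable. Rtl1, a gene derived from a retrotransposon that lies between Meg3 and Rian, had 0, 0, 0, 3 and 0 counts in wild-type liver and 7, 2, 4, 1 and 6 in labelled knockout liver. A maternal antisense RNA runs across Rtl1, and the use of strand in the counting is not given in the sources used here, so its reads cannot be assigned to a strand. Dio3os, a long RNA at the far end of the domain, differed by -1.42 on the log2 scale (SE 0.54, edgeR adjusted p = 0.155), with overlapping groups.

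Genes around the cluster differed little in comparison. Within 1000 kb of the cluster and apart from its members, 19 genes were tested in each tissue, a window chosen after the values were seen. In liver 3 of the 19 were called, namely Evl, Slc25a47 and Hsp90aa1, and all 19 lay between -1.42 and 0.86, with a median of 0.16 against -0.0032 for all genes tested. In kidney 2 were called, Evl at -0.90 and Degs2 at 1.52. Each call rate stands beside a background of 6.02% in liver and 2.26% in kidney.

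**Figure D2:**
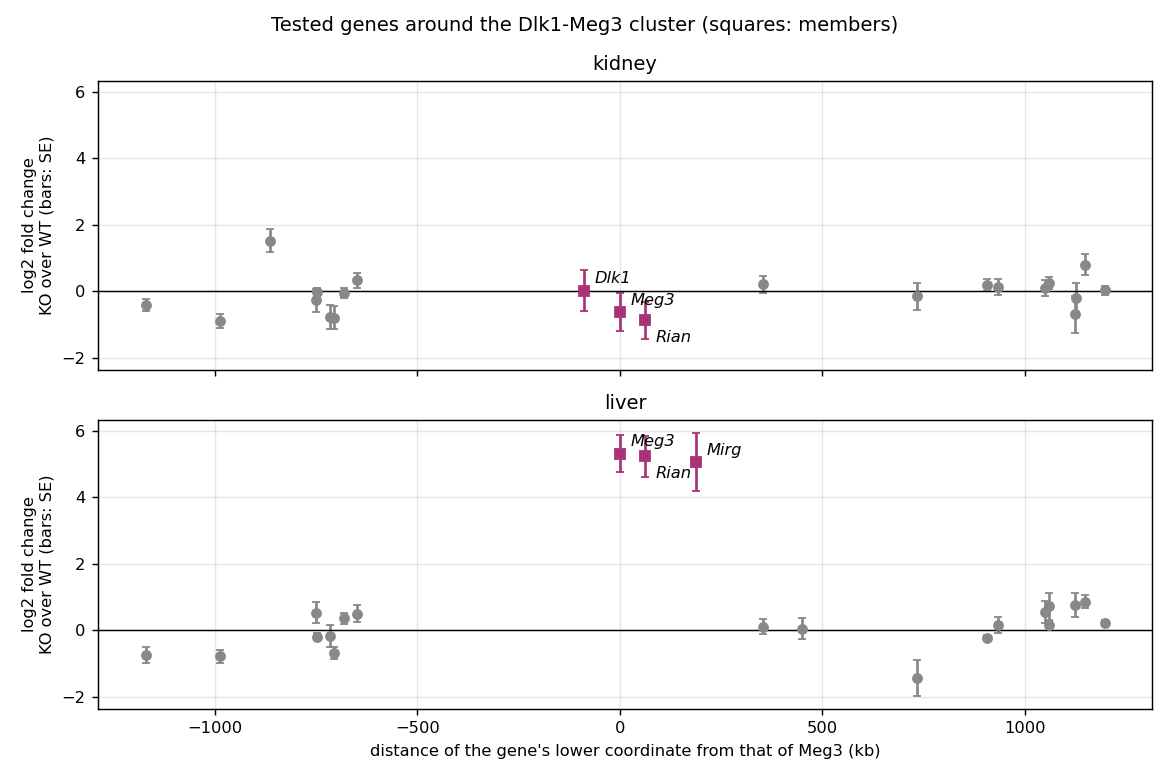
Log2 fold change of labelled knockout over wild type with its SE (vertical) for each tested gene against its distance from Meg3 in kb (horizontal), in kidney (top) and liver (bottom). Squares are members and circles other genes. In liver Meg3, Rian and Mirg stand at 5.05 to 5.31 and the 19 other genes between -1.42 and 0.86, while in kidney no such step is seen.

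H19, the abundant fetal RNA next to Igf2, went the other way in liver. It had 30, 49, 29, 227 and 270 counts in wild-type mice 1, 3, 4, 5 and 6, and 2, 0, 12, 5 and 3 counts in labelled knockout mice 1 to 5. Mice 5 and 6 of the wild type stood at 7.37 and 7.76 CPM and the other 3 between 1.02 and 1.80 CPM. The highest labelled knockout liver was at 0.496 CPM, so the groups did not overlap, as for 4.53% of all genes tested in this direction. The log2 fold change was -4.52 (SE 0.80), with -5.37 without labelled knockout liver 3 and -4.07 without wild-type liver 6. Igf2, the fetal growth factor that shares enhancers with H19, had 2 counts over the 5 wild-type kidneys, 1 over the labelled knockout kidneys, 1 over the wild-type livers and 0 over the labelled knockout livers. No level or fold can be given for it.

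Plagl1, a zinc finger factor that binds promoters of other imprinted genes, was lower in the labelled knockout of both tissues. In liver it stood at 0.976 ± 0.146 CPM against 2.03 ± 0.591, on 22 to 31 counts against 41 to 76. Its log2 fold change was -1.06 (SE 0.24). The lowest wild-type liver was 1.09 times above the highest labelled knockout liver, so the groups did not overlap by a narrow margin. The liver call was lost without wild-type liver 6 (-1.01), without labelled knockout liver 4 (-1.02) and without labelled knockout livers 4 and 5 together (-0.94).

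In kidney 12.7, 21.9, 10.2, 11.7 and 8.71 CPM of Plagl1 were found in wild-type mice 1, 3, 4, 5 and 6, and 5.59, 6.18, 6.40, 5.84 and 4.02 CPM in labelled knockout mice 1 to 5. All 5 labelled knockout kidneys lay below all 5 wild-type kidneys, as for 4.13% of the 16500 genes tested in this direction. The log2 fold change was -1.22 (SE 0.25). Plagl1 was the single member called in kidney, where 7 members were tested and 1.87% of all genes were called lower. The median of these 7 was -0.87, against -0.07 for all genes tested. The members were picked with the kidney difference known, so nothing is read from this median or from the count. The kidney call was lost without wild-type library 5 (-1.25) and without labelled knockout library 1 (-1.21), 3 (-1.27), 4 (-1.23) or 5 (-1.11).

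Peg3, a zinc finger protein of maternal care and growth, stood at 13.6 ± 3.22 against 25.9 ± 10.01 CPM in kidney (-0.92, SE 0.25). In kidney 4 of 5 labelled knockout libraries lay below all wild-type libraries, and labelled knockout kidney 1 (16.9 CPM) lay just above wild-type kidney 6 (16.6 CPM). Peg3 differed by 0.11 (SE 0.31) in liver, where the groups overlapped, and this turned to -0.20 without labelled knockout livers 4 and 5. Cdkn1c, the cyclin-dependent kinase inhibitor p57, stood at 10.5 ± 4.56 against 22.7 ± 8.29 CPM in kidney (-1.11, SE 0.33) and at 1.09 ± 0.487 against 1.55 ± 0.328 CPM in liver (-0.53, SE 0.32). In kidney it ran from 4.83 to 16.8 CPM in the labelled knockout and from 11.5 to 32.7 CPM in the wild type, so the groups overlapped. Neither gene was called by edgeR with all libraries. Without wild-type kidney 6, edgeR called Peg3 in kidney (-1.04). In kidney both were called by the DESeq2 Wald test, with 3 members then lower. Without wild-type kidneys 1 and 3, Plagl1 (-0.87) and Cdkn1c (-1.28) were called by edgeR and Peg3 (-0.58) was not.

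Grb10, an adaptor that dampens insulin and IGF receptor signalling, was not called either. It stood at 29.1 ± 2.89 against 30.6 ± 2.60 CPM in kidney (-0.07, SE 0.14) and at 5.04 ± 1.49 against 6.16 ± 1.38 CPM in liver (-0.30, SE 0.23). The groups overlapped in both tissues.

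**Figure D3:**
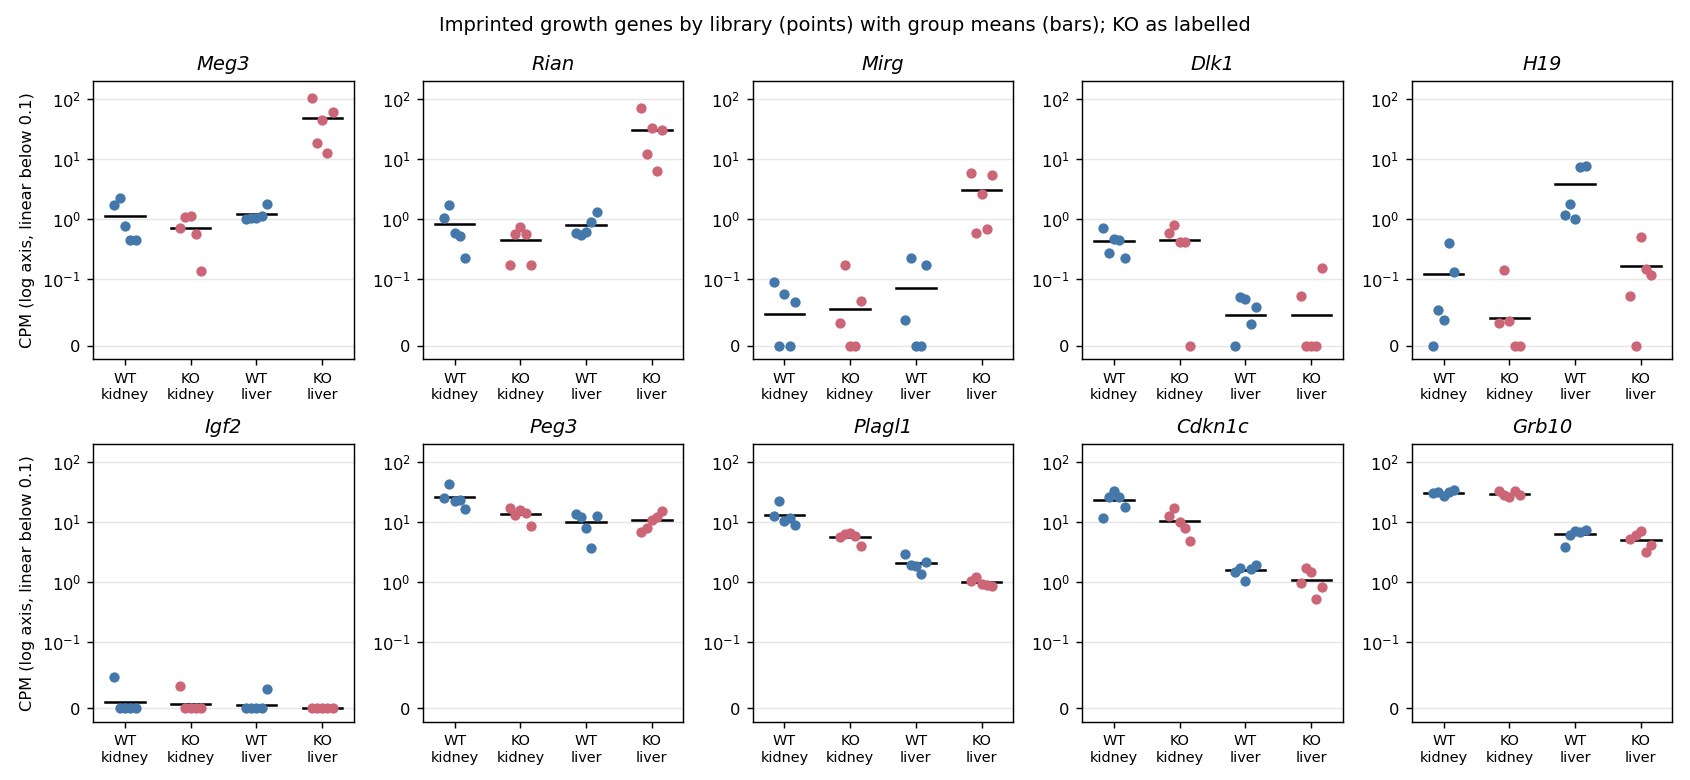
CPM of the 10 members in every library (points; log axis that is linear below 0.1) with group means (bars), in wild-type (WT, blue) and labelled knockout (KO, red) kidney and liver. Meg3, Rian and Mirg stand out in labelled knockout liver, H19 in wild-type liver, and Igf2 lies at or near 0 in every group.

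The chromosome 12 RNAs were low in kidney in both genotypes. Meg3 had 73, 41, 20, 15 and 14 counts in wild-type kidneys 1, 3, 4, 5 and 6, and 21, 31, 30, 15 and 4 in labelled knockout kidneys 1 to 5. Its log2 fold change of -0.62 (SE 0.56) turned to 0.37 without wild-type kidneys 1 and 3, which had the highest values. Rian differed by -0.87 (SE 0.56), with 7 to 44 against 5 to 20 counts, and by -0.0056 without wild-type kidneys 1 and 3. Dlk1, which had 5 to 30 counts in wild-type and 0 to 23 in labelled knockout kidneys, differed by 0.02 (SE 0.63). Without wild-type kidneys 1 and 3 it differed by 0.21. Mirg had at most 5 counts and H19 at most 13 in any kidney, and neither passed the filter. The mice with the most Meg3 in liver were not those with the most in kidney: labelled knockout mouse 5, second highest in liver, had the fewest counts in kidney.

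The genotype difference in kidney minus that in liver was -5.90 (SE 0.79) for Meg3 and -6.06 (SE 0.84) for Rian on the log2 scale, from a fit of all 20 libraries. These 2 of 9 members tested were called lower, where 0.568% of all genes were. Nothing is read from this count, as the members were picked with these contrasts known. The difference was -4.95 (SE 1.59) for Mirg and 3.07 (SE 1.70) for H19, both not called, on the few kidney counts given above. With 1 library left out, Mirg ran from -5.90 (without labelled knockout kidney 2) to -4.50, and H19 from 2.03 (without labelled knockout kidney 2) to 4.26 (without wild-type kidney 5). For Plagl1 it was -0.13 (SE 0.35), not called, and it turned to 0.12 without wild-type kidney 3.

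**Figure D4:**
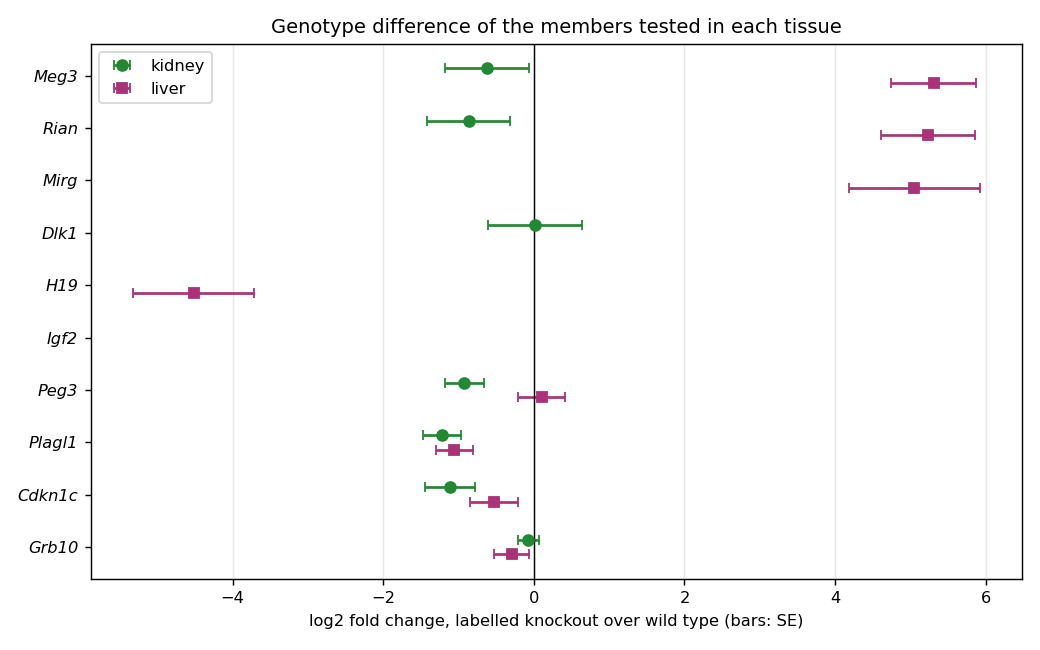
Log2 fold change of labelled knockout over wild type (horizontal, bars are SE) for each member in the tissues where it passed the filter, kidney as circles and liver as squares. Meg3, Rian and Mirg lie beyond 5 and H19 below -4 in liver, and Plagl1 lies near -1 in both tissues.

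The levels of the members differed between the tissues as well, and the members are not known to have been chosen on this contrast. The same libraries gave the genotype differences used in the choice. The adjusted p values of members between tissues, in either genotype, are thus not independent of that choice. In the wild type, Cdkn1c was 9.36 times higher in kidney than in liver (log2 3.23, SE 0.29, edgeR adjusted p = 4.44e-07), Plagl1 4.11 times (2.04, SE 0.28, 3.31e-05) and Grb10 3.20 times (1.68, SE 0.18, 3.41e-06). H19 was 45.3 times lower in kidney (-5.50, SE 0.87), and the difference was -6.69 without wild-type kidney 5 and -5.09 without wild-type liver 6. It passed the filter through the wild-type livers, whose values also took part in its choice, so its difference is a description without a p. The kidney and liver groups of these 4 genes did not overlap, as for 23.5% of all genes tested with kidney higher and 20.4% with kidney lower. Here 3 members were called higher in kidney and 1 lower, of 7 tested, against a background of 29.6% and 24.2%. Peg3 was higher in kidney by 0.75 (SE 0.33, edgeR adjusted p = 0.0685) and was called with the mouse as a block (0.81, edgeR adjusted p = 0.0370) and without wild-type kidney 6 (0.87, edgeR adjusted p = 0.0394). Meg3 (-0.76, SE 0.45, adjusted p = 0.178) and Rian (-0.63, SE 0.48, 0.296) were not called, and Meg3 was called lower in kidney without wild-type kidney 3 (-1.10, edgeR adjusted p = 0.0415).

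In the labelled knockout mice, Cdkn1c (2.67, SE 0.37, edgeR adjusted p = 2.78e-05), Plagl1 (1.90, SE 0.20, 1.82e-06) and Grb10 (1.92, SE 0.18, 7.50e-07) were higher in kidney again. Meg3, Rian and Mirg differed by -6.68, -6.73 and -6.24 between kidney and liver on the log2 scale, values that rest on the same labelled knockout livers as above. Mirg differed by -7.16 without labelled knockout kidney 2 and by -5.88 without labelled knockout liver 1. In this comparison 3 of 7 members were called higher and 3 lower, against a background of 34.2% and 32.6%.

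The order of the levels per kb of gene length also differed. In wild-type kidney Cdkn1c led at 11.1 CPM per kb, followed by Grb10 (3.37), Peg3 (1.94) and Plagl1 (1.67), with the other 6 members at 0.0753 or less. Cdkn1c lay above Grb10 in every library, whereas Grb10, Peg3 and Plagl1 overlapped with their neighbours in that order, as did Dlk1, Meg3, H19 and Rian (0.0753, 0.0622, 0.0501 and 0.0449). Labelled knockout kidney had the same 4 leading genes, with Cdkn1c and Grb10 now overlapping, at 5.14 for Cdkn1c, 3.20 for Grb10, 1.02 for Peg3 and 0.717 for Plagl1. In wild-type liver H19 led at 1.55 CPM per kb, ahead of Cdkn1c (0.760), Peg3 (0.741) and Grb10 (0.677), but the ranges of all 4 overlapped. In labelled knockout liver Meg3 (2.68) and Rian (1.68) led on average, with neighbours in the order overlapping, ahead of Peg3 (0.796), Grb10 (0.554), Cdkn1c (0.533) and Mirg (0.420). H19, at 0.0676, then stood below Plagl1 (0.125), again with overlapping ranges.

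Of 45 other imprinted genes listed, 32 were tested in kidney. There 1 was called higher, against 0.394% of all genes, and 2 lower, against 1.87%, with a median of -0.06 against -0.07 for all genes. Airn, the antisense RNA that silences the paternal Igf2r, was higher at 17.6 ± 4.55 against 8.72 ± 2.15 CPM (log2 1.01, SE 0.22, edgeR adjusted p = 0.0332). It overlaps Igf2r on the other strand, so without strand the reads of these genes cannot be told apart. Zim1, a zinc finger gene next to Peg3, was lower at 0.691 ± 0.333 against 2.17 ± 0.758 CPM (-1.64, SE 0.37, edgeR adjusted p = 0.0370), and so was the proteoglycan gene Dcn (-0.995, SE 0.22, 0.0370). In liver 27 were tested and 1 was called, against 6.02% of all genes in either direction. This was Slc22a3, an organic cation transporter, which was higher (0.70, SE 0.18, edgeR adjusted p = 0.0357). The liver median was -0.08. Igf2r, the receptor that clears Igf2, was called in neither tissue, at 115 ± 24.2 against 87.0 ± 24.2 CPM in kidney and 34.2 ± 3.40 against 35.2 ± 4.30 CPM in liver.

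Of 19 genes of IGF and insulin signalling, 1 of 19 tested was lower in kidney and 2 of 15 tested were lower in liver, and none was higher in either. In kidney this was Igf1, at 7.18 ± 2.69 against 21.7 ± 10.1 CPM (-1.59, SE 0.31, edgeR adjusted p = 0.0208). In liver they were the binding protein genes Igfbp1 (-3.17, SE 0.51, edgeR adjusted p = 0.00288) and Igfbp3 (-1.25, SE 0.31, 0.0337). The list's median was -0.14 in kidney and -0.15 in liver, against -0.07 and -0.0032 for all genes. Of all genes tested, 1.87% were called lower in kidney and 4.08% in liver. Liver Igf1, the main source of the circulating hormone, stood at 693 ± 106 against 665 ± 79.6 CPM. Of 17 genes of fetal and juvenile growth, 1 of 13 tested passed in kidney (median of the list -0.57) and 2 of 11 in liver (median -0.14). The mRNA-binding protein genes Igf2bp2 (-1.91, SE 0.46, edgeR adjusted p = 0.0270) and Igf2bp3 (-2.29, SE 0.48, 0.0141) were lower in liver, and Igf2bp1 (1.55, SE 0.26, 0.0120) was higher in kidney. The share of all genes called was 4.08% for lower in liver and 0.394% for higher in kidney. The fetal liver protein gene Afp stood at 3.94 ± 1.14 against 4.35 ± 0.935 CPM in liver.

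Markers of other cells moved with genotype beside these genes. Of all genes tested, 1.87% were called lower in kidney and 4.08% in liver, and 0.394% were called higher in kidney. The summed level of 14 fibroblast and matrix genes ran from 159 to 321 CPM in labelled knockout and from 571 to 1216 CPM in wild-type kidneys, with 10 of 14 called lower, and from 107 to 223 against 217 to 468 CPM in livers, with 8 of 14 lower. Proliferation genes summed to 89.3 to 117 against 132 to 247 CPM in kidney, with 7 of 12 lower, and to 47.1 to 54.8 against 58.8 to 105 CPM in liver, with 5 of 11 tested lower. Endothelial markers summed to 191 to 385 against 386 to 539 CPM in kidney (1 of 10 called lower) and to 119 to 235 against 175 to 241 in liver (1 of 10). All 10 had a negative log2 fold change in each tissue, with medians of -0.75 in kidney and -0.30 in liver. Markers of podocytes, in which Cdkn1c is known to be expressed, summed to 91.3 to 320 against 251 to 394 CPM in kidney, with 0 of 7 called. All 7 had a negative log2 fold change there, with a median of -0.77. Proximal tubule markers went the other way, at 14487 to 17506 against 12512 to 13258 CPM in kidney. Of these 10 markers 9 had a positive log2 fold change, and 1, Slc22a6, was called higher. In liver 7 hepatocyte markers summed to 66574 to 87964 against 94433 to 122065 CPM, with 1 of 7, Alb, lower. Alb made up most of this sum, at 44694 ± 10691 against 74970 ± 8485 CPM. Of the 7 log2 fold changes, 5 were negative and 2 positive (Fga 0.43 and Fgb 0.47), with a median of -0.15. The part of these markers in the lower Plagl1, Peg3 and Cdkn1c, and in the liver differences, was not tested. In bulk tissue, fewer cells of a type and less RNA per cell cannot be told apart.

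Tissues known for high levels of these RNAs were looked at as well. Of 13 adrenal markers, 7 had no count in any labelled knockout liver, among them Cyp11b1, Nr5a1, Th and Chga, and the list summed to 2.81 to 8.95 CPM there against 2.13 to 3.91 CPM in wild-type livers. Only 2 of the 13 passed the filter in liver, where 1.94% of all genes tested were called higher. A steroid 21-hydroxylase gene, Cyp21a1, was called, at 2.29 ± 1.95 against 0.0243 ± 0.0378 CPM in liver (6.19, SE 0.79, edgeR adjusted p = 0.000658). Star was not called, at 2.48 ± 0.527 against 1.88 ± 0.474 CPM. Akr1b7, Hsd3b1 and Chga, not tested, went the other way. They had 7, 4 and 0 counts over the labelled knockout livers against 99, 71 and 8 over the wild-type livers. Skeletal muscle markers summed to 0.752 to 1.22 against 0.552 to 1.13 CPM in liver. Adipocyte markers summed to 3.86 to 5.80 against 4.54 to 81.1 CPM there, with medians of 4.40 and 5.18 CPM. Of these lists only 1 muscle gene and 2 adipocyte genes were tested in liver, and none was called.

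The genes whose pattern was most like that of a member were found by Pearson's r of log2(CPM + 1) over the 10 libraries of a tissue, among genes of at least 1 CPM on average. The 10 libraries hold both genotypes, so a shared genotype difference alone gives a high r. For Meg3 in liver they were Serpine2 (r = 0.991), which encodes a protease inhibitor, the sulfotransferase gene Sult5a1 (0.981) and Mup15 (0.967). Serpine2 also led for Rian (0.984) and Mirg (0.942), and the imprinted Slc22a3 was next for Mirg (0.941). Meg3 and Rian had an r of 0.996 with each other, and Meg3 and Mirg 0.941. For H19 in liver they were Crtap (0.958), Umps (0.954) and Soat1 (0.948). For Plagl1 they were Nlrc5 (0.987), Chaf1b (0.984) and Fbn1 (0.983) in kidney and Rasa4 (0.950), Tead1 (0.945) and H2-Q4 (0.938) in liver. In kidney Peg3 was most like Speg (0.983), Col6a3 (0.980) and Myo9a (0.971), and it had an r of 0.964 with Plagl1. Cdkn1c was most like Tifa (0.986), Cyp1b1 (0.979) and Slamf9 (0.974) in kidney, and Meg3 most like Rhbdl2 (0.979). Wild-type kidney 3, with 50.8% mitochondrial counts, had the highest kidney levels of Peg3 (42.9 CPM), Plagl1 (21.9 CPM) and Meg3 (2.21 CPM). How far the kidney r of these genes rests on that library was not tested. Mup15 and H2-Q4 belong to families of near-identical copies, and their values are uncertain for that reason.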

How the data were processed

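RNA-seq was done on 20 libraries in 4 groups of 5, by genotype and tissue. Raw counts per gene, as deposited by the authors, were tested, and the second deposited table holds log2 FPKM of 15454 genes. Per the submitters' processing notes, HISAT2 2.0.5, StringTie and DESeq2 1.16.1 were used with mm10, with no role or order given. Counting tool and strand are not given in the sources used here. Gene lengths are those of the deposited count table.

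Kidney and liver were fitted alone with edgeR 4.0.16 (R 4.3.3): filterByExpr with a minimum count of 10, TMM scaling, the quasi-likelihood F test and Benjamini-Hochberg adjustment over all genes tested. The difference between tissues came from a fit of all 20 libraries, and tissues were compared within each genotype. SE is the log2 fold change over the root of its F statistic. DESeq2 1.42.0 and limma 3.58.1 served as alternatives, as did other scalings, other filters, the blocks and leaving out libraries. The members, gene lists and rules were chosen with earlier results of these data known. Named genes were the 10 members, up to 4 called genes with the smallest p of each list, the 3 genes most alike to a member, and genes within the cluster window. Not all genes that these rules name are printed. On simulated counts with 100 genes changed by 2 on the log2 scale, the fit called 90 in kidney (16500 genes) and 97 in liver (14822 genes). Of 100 changed by 1, it called 34 and 77. Tissues were paired by mouse from genotype and number in the titles, with correlations of their deviations from the group means between -0.166 and 0.382. A value of 0 has a floor of 3 counts, which covers counting error only.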

Additional observations from a re-analysis of the deposited data

Results flagged for a closer look

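Of 28 groups of 5 libraries with a mean of at least 10 counts, 1 held a library far from the others. Wild-type liver 6 had 1.81 CPM of Meg3 (63 counts), and the next library had 1.14 CPM. The gap was 0.840 of the range of the group, and the limit of 0.71 is passed by chance in about 1 of 20 groups. All labelled knockout livers lay above this library. The genotype difference in kidney differed from that in liver for Meg3, by -5.90 on the log2 scale, and for Rian, by -6.06. These values rest on the contrasts with which the genes were chosen.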

How the results depend on the processing

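Apart from leaving out 1 library, 240 of 254 values of members kept their direction and side of the threshold, 2 lost the call, 7 gained it and 5 changed sign. Leaving out 1 library gave 444 of 470 unchanged, 7 lost, 3 gained and 16 reversed. The cause of each change was not tested. In kidney all genes called higher and lower numbered 306 and 845 with DESeq2, 41 and 196 with limma on the deposited log2 FPKM, and 185 and 717 with the replicate block by title number. Genes called higher there were 38 without TMM, 98 without the filter and 177 without wild-type kidneys 1 and 3. Members called lower were 3 with DESeq2, 2 with the block (Peg3 then at -1.02) and 2 without those 2 kidneys. In liver, genes called higher were 540 with DESeq2, 176 with limma and 107 with the block, and those called lower were 200 with the block. Members called lower in liver were 1 with the block (Plagl1 then at -1.08) and 1 without labelled knockout livers 4 and 5. With limma 2 members were higher and 1 lower in liver, because some members have no log2 FPKM values. All 12 member results that limma gave over both tissues kept their direction and side of the threshold. Whether title numbers pair mice between genotypes is not known. Correlations of deviations at equal numbers ran from 0.087 to 0.237 in kidney, where 2 of 4 libraries were closest to their own number. In liver they ran from -0.0427 to 0.00437, where 0 of 4 were. These values cannot decide it, since a kidney and liver taken as 1 mouse also had correlations as low as -0.166. For the difference between tissues DESeq2 called 350 higher and 261 lower, and 99 were higher without TMM. Without TMM, 8536 and 2166 genes were called higher and lower in wild-type kidney against liver, and 9443 and 2710 in the labelled knockout. With no filter 5 members were higher in wild-type kidney. The mouse block changed no call of a member but that of Peg3. Signs reversed for Dlk1 in kidney (-0.11 without TMM, -0.65 with the block), Meg3 in kidney (0.37 without wild-type kidneys 1 and 3), Peg3 in liver (-0.20 without labelled knockout livers 4 and 5) and Peg3 between labelled knockout tissues (0.38 without TMM).

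When 1 library was left out, kidney calls ran from 24 to 169 higher and from 75 to 752 lower, with 0 to 2 members lower. The lowest counts came without labelled knockout kidney 4 and the highest without wild-type kidney 6. Liver calls ran from 189 to 307 higher and from 386 to 618 lower, with 1 to 2 members lower. Calls for the difference between tissues ran from 103 to 258 higher and from 60 to 229 lower, and 1 to 2 members were lower in wild-type kidney than in liver. Dlk1 in kidney ran from -0.31 to 0.35, its difference between tissues from -0.26 to 1.26, Peg3 in liver from -0.11 to 0.25 and the difference between tissues of Plagl1 from -0.30 to 0.12. Depth limits Dlk1, Igf2 and the kidney values of Mirg and H19.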
